A study of Mus musculus with 7 samples.

Results

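The nuclear genes of oxidative phosphorylation (OXPHOS) were followed in 7 RNA-seq libraries of lung regulatory T (Treg) cells, 3 sorted as CCR6+ and 4 as CCR6-. The genes were chosen by symbol alone: those starting with Nduf, Uqcr, Cox4 to Cox8 or Atp5, and Sdha, Sdhb, Sdhc and Sdhd. Of 19736 genes listed, 92 matched, and 86 reached a normalised count of 10 in 3 or more libraries, as did 14582 genes in all. The 86 comprise 36 subunits of complex I, 7 complex I assembly factors, 4 subunits of complex II, 8 of complex III, 14 genes of complex IV and 17 of complex V. The 6 that missed the filter are the complex IV isoform genes Cox4i2, Cox6a2, Cox7a1, Cox7b2, Cox8b and Cox8c. Ndufa4, Ndufa4l2 and Cox7a2l were placed with complex IV, and Atp5s and Atp5sl with complex V. Atp5sl was placed by its symbol alone, but it is the gene Dmac2, a complex I assembly factor.

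Oxidative phosphorylation is the last stage of respiration, in which complexes I to IV of the inner mitochondrial membrane pass electrons from NADH and succinate to oxygen. Complexes I, III and IV pump protons as they do so, and complex V uses the proton gradient to make ATP. Most subunits are encoded in the nucleus and imported. The mitochondrial genome encodes the others, which were not analysed here. Treg cells are known for drawing on mitochondrial respiration, and loss of complex III in these cells impairs their suppressive function.

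All libraries came from female mice, 5 to 7 weeks old, which carried the R576 allele of Il4ra and the Foxp3-EGFP reporter. The mice received 100 µg of ovalbumin in 100 µL intraperitoneally, a boost after 2 weeks, and a daily 30 min challenge with aerosolised ovalbumin at 1% on 3 days from day 29, and were killed on day 32. Foxp3-EGFP+ cells were sorted from lung digests into CCR6+ and CCR6- fractions, so the allele, the reporter and the challenge are common to both groups and no unchallenged or wild-type library enters the comparison. Whether replicate libraries derive from different mice is not stated in the labels, so a p-value here reflects only how these libraries vary, and that variation may be technical. CCR6 is a chemokine receptor, and its transcript Ccr6 lay at 5488 ± 2414 (SD, n = 3) in the CCR6+ and 617 ± 312 (SD, n = 4) in the CCR6- libraries, with no overlap.

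The libraries held between 11607780 and 47261246 reads, with CCR6+ replicate 2 the shallowest and CCR6- replicate 4 the deepest. CCR6+ replicate 2 stood apart from the others. It had 2.16% of genes at 0, against 6.89% to 29.7% elsewhere, and a read in 800 of 899 olfactory and vomeronasal receptor genes, which lung T cells are not known to use, against 38 to 604 elsewhere. CCR6+ replicate 3 and CCR6- replicate 3 came next, with 604 and 595 of these receptor genes read and 6.89% and 7.09% of genes at 0. The remaining libraries had a read in 38 to 273. The summed level of 14 fibroblast, pericyte and smooth muscle markers was 31596 in this library and 252 to 2702 in the other 6, and all 14 were highest there. The sums of 12 epithelial, 10 endothelial and 10 macrophage and monocyte markers were 81034, 54993 and 92688 there, against 2178 to 12632, 5489 to 9634 and 18818 to 70442 elsewhere. Single genes carry much of the sums elsewhere. Pecam1 made up 5317 to 6648 of the endothelial ones. Ccr2, in the macrophage and monocyte list, was highest in CCR6+ replicate 1 at 54010, against 18948 in CCR6+ replicate 2, where the other 9 were highest. The sum of 8 B cell markers was as high in CCR6+ replicate 1 as in CCR6+ replicate 2, at 5919 and 5914, against 1441 in CCR6+ replicate 3 and 532 to 3803 in CCR6- libraries. All tested markers of these 5 lists lay higher in CCR6+ cells on the fitted scale. In CCR6+ replicate 2 the sum of 8 T and Treg cell markers was 113808, against 225505 to 294122 elsewhere, with none of the 8 at 0 in any library. The part of these markers in the OXPHOS values was not tested, and the values without CCR6+ replicate 2 are given below.

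The OXPHOS genes lay lower in the CCR6+ than in the CCR6- libraries for 71 of 86 genes, or 82.6%, but no gene passed the test. The median difference was -0.21 on the scale of log2(normalised count + 1), CCR6+ minus CCR6-. Over all 14582 genes 43.1% lay lower and the median was 0.097. That background depends on level: of the 10864 genes with a mean of at least 100, 54.1% lay lower, with a median of -0.039. Of the 77 OXPHOS genes at that level, 68 lay lower, with a median of -0.23. With limma and Benjamini-Hochberg adjustment over all genes, 0 of the 86 passed an adjusted p of 0.05, the smallest being 0.46, and percent called over all genes was 0. At an unadjusted p under 0.05 stood 1 gene that was higher in CCR6+ cells, against 8.22% of all genes, and 1 that was lower, against 2.35%. EdgeR and DESeq2 on the recovered reads also called 0 of the 86 after adjustment. Over all genes edgeR called 0.0137% higher and 0% lower, and DESeq2 3.72% higher and 0.933% lower. At an unadjusted p under 0.05, edgeR placed 2 of the 86 lower, against 5.05% of all genes, and DESeq2 5, against 5% of all genes. In these sorted bulk samples, fewer cells of a type and less RNA per cell cannot be told apart.

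The groups did not overlap for 6 OXPHOS genes, or 6.98%, all lower in CCR6+ cells, against 5.53% of all genes. Among them were Cox7c, Atp5a1, Uqcrc1, Ndufv1 and Ndufs1. No OXPHOS gene was higher in CCR6+ cells without overlap, against 7.96% of all genes. By complex, the median difference was -0.27 for complex I subunits, -0.16 for complex I assembly factors, -0.33 for complex II, -0.19 for complex III, -0.12 for complex IV and -0.22 for complex V. As a mean over its genes, Ndufa4l2 included, complex IV instead lay higher in CCR6+ libraries. It stood at 8.76 ± 0.042 (SD, n = 3) against 8.66 ± 0.483 (SD, n = 4), while the means of the other complexes lay lower. The mean level over the 86 genes was 9.39 ± 0.080 (SD, n = 3) in CCR6+ and 9.52 ± 0.378 (SD, n = 4) in CCR6- libraries, a difference smaller than the spread of the CCR6- libraries.

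**Figure D1:**
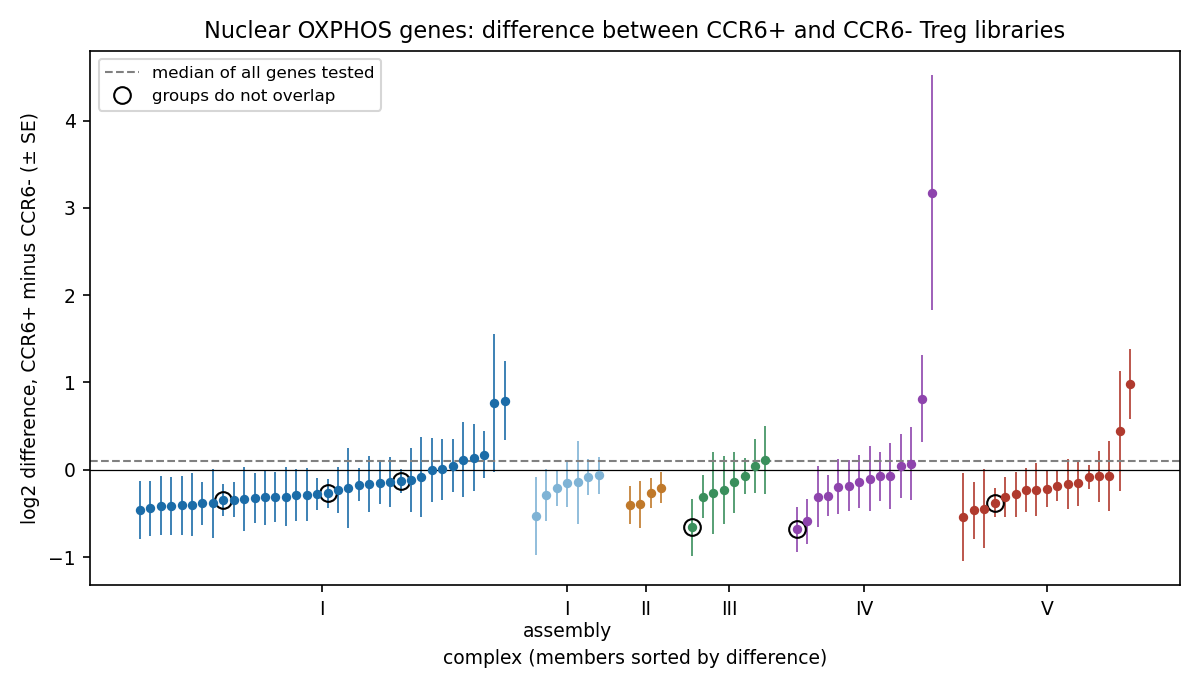
Each point is the log2 difference of 1 of the 86 OXPHOS genes, CCR6+ minus CCR6-, with its standard error, sorted within each complex on the horizontal axis. Most points lie below both 0 and the dashed median of all genes tested at 0.097, the 6 ringed genes have groups that do not overlap, and the highest point, at 3.18, is Ndufa4l2.

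Of the libraries left out one at a time, CCR6- replicate 2 moved the median most. Of the 86 genes, 58 were highest in CCR6- replicate 2 (67.4%, against 11.6% of all genes) and 17 in CCR6- replicate 4 (19.8%, against 21.6%). Another 10 were highest in CCR6+ replicate 2 (11.6%, against 43.6%) and 1 in CCR6- replicate 3 (against 603 of all 14582 genes). CCR6- replicate 2 had 0.913% of its reads in the 86 genes, and the other libraries had 0.611% to 0.715%. Measured as the deviation from each gene's own mean over the 7 libraries, the median OXPHOS gene lay at -0.096, -0.25 and -0.023 in CCR6+ replicates 1 to 3. In CCR6- replicates 1 to 4 it lay at -0.37, 0.56, -0.13 and 0.24. The lowest library was thus also CCR6-, and CCR6- replicates 1 and 3 lay among or below the CCR6+ libraries. Without CCR6- replicate 2 the median difference of the 86 genes moved from -0.21 to -0.063 and the number that lay lower in CCR6+ cells from 71 to 51, while without CCR6+ replicate 2 these values were -0.17 and 70. The medians of complexes III and IV turned positive without CCR6- replicate 2, at 0.050 and 0.098.

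**Figure D2:**
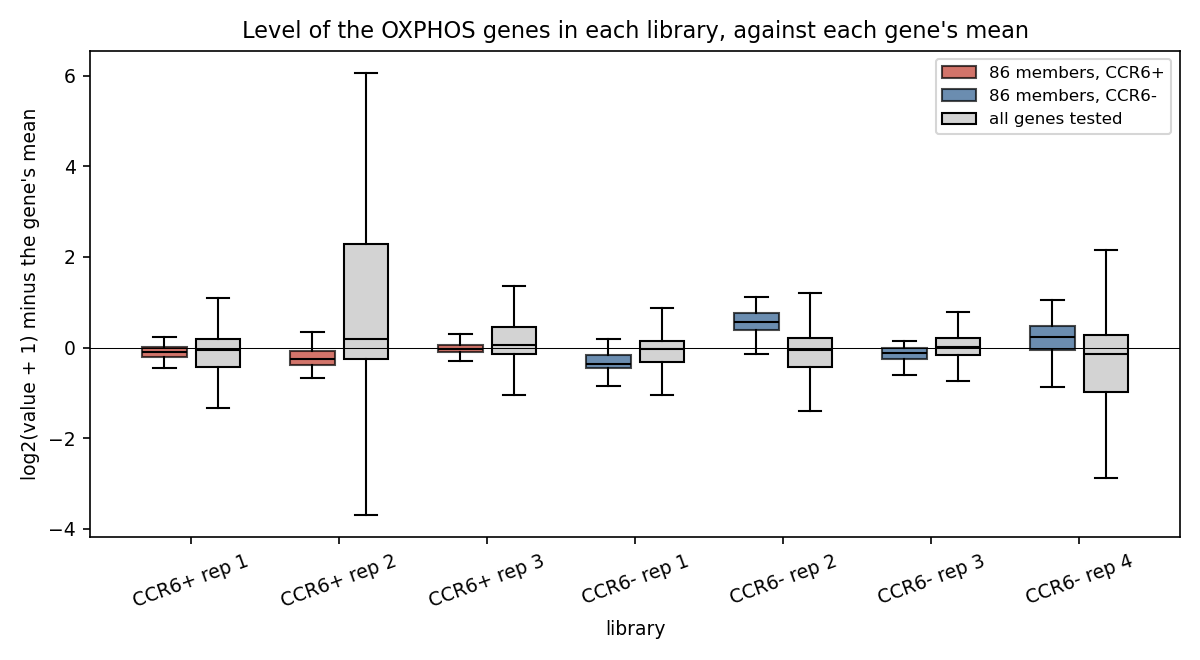
Boxes show the deviation of log2(normalised count + 1) from each gene's mean in each library, coloured for the 86 OXPHOS genes and grey for all genes tested, with the median, the quartiles and whiskers to 1.5 times the interquartile range. The OXPHOS boxes are narrow, highest in CCR6- replicate 2 with a median of 0.56 and lowest in CCR6- replicate 1 with -0.37.

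The 3 CCR6+ libraries lay close together in these genes and the 4 CCR6- libraries did not. The median coefficient of variation of an OXPHOS gene was 14.4% among CCR6+ libraries and 33.6% among CCR6- libraries, whereas over all genes it was 27.2% and 27.0%. CCR6- replicate 2 was high in every complex, with medians from 0.38 for complex II to 0.73 for complex IV. CCR6- replicate 4 was high in complex I at 0.35, in its assembly factors at 0.40 and in complex II at 0.35, but not in complex IV at 0.051 or complex V at -0.072. In that library 32 of 36 complex I subunits lay above their own mean, against 7 of 17 genes of complex V.

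**Figure D3:**
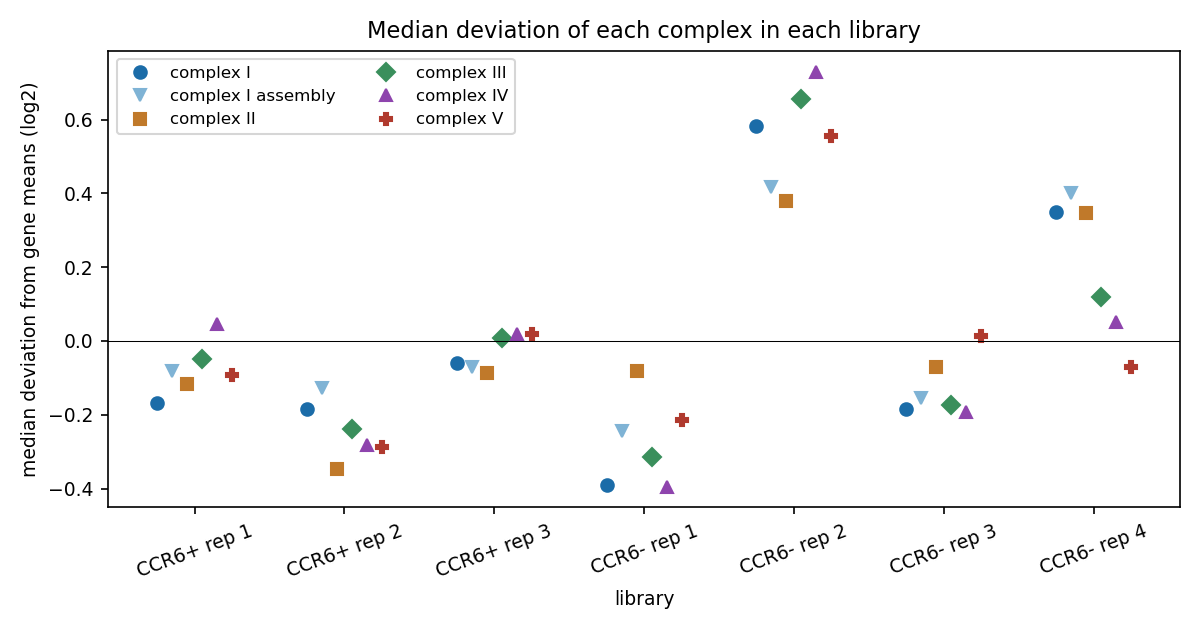
Points give the median deviation of each complex from its genes' means in each library, on the log2 scale. All symbols of CCR6- replicate 2 lie between 0.38 and 0.73, whereas those of CCR6- replicate 4 range from -0.072 for complex V to 0.40 for the complex I assembly factors.

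OXPHOS genes are short, and the libraries differed by gene length. The median OXPHOS gene had 1101 exon bases and the median of all genes 3414, counted over the exons of protein-coding transcripts. Among all genes with a mean of at least 100, the median deviation in CCR6- replicate 2 went down with length, from 0.82 at up to 500 bases (16 genes) and 0.55 at 500 to 1000 bases (291 genes) through 0.24 and 0.026 to -0.14 above 4000 bases (4568 genes). OXPHOS genes of the same classes lay at 0.86 (4 genes), 0.75 (28 genes), 0.51 (30 genes), 0.27 (13 genes) and -0.10 (2 genes) in that library, so that at 500 to 4000 bases they lay above genes of their length. CCR6- replicate 1 ran the other way, from -0.45 for the shortest to 0.089 for the longest genes. Within classes, the median difference between groups was -0.21 for OXPHOS genes and -0.19 for all genes at 500 to 1000 bases, -0.28 and -0.15 at 1000 to 2000 bases, and -0.19 and -0.076 at 2000 to 4000 bases. After the length trend was removed from each library, the median OXPHOS difference was -0.040 and that of all genes 0.16, so that OXPHOS genes lay 0.20 below all genes, against 0.31 before. The median OXPHOS deviation in CCR6- replicate 2 was then 0.13.

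**Figure D4:**
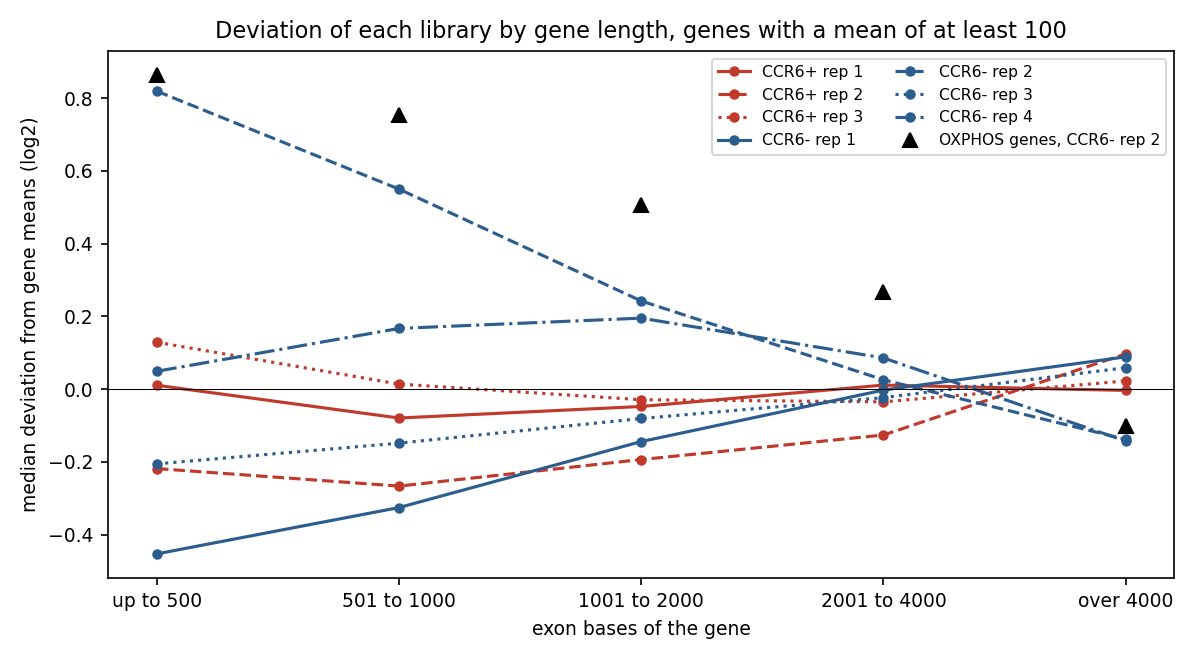
Lines give the median deviation of all genes with a mean of at least 100 in each library, by class of exon length, and triangles give that of the OXPHOS genes in CCR6- replicate 2. The line of CCR6- replicate 2 runs from 0.82 to -0.14 and that of CCR6- replicate 1 from -0.45 to 0.089, and the triangles of the 3 middle classes lie above the line of their library.

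The mitochondrial and cytosolic ribosomal proteins, other families of short genes, were read beside the OXPHOS genes. Of 76 mitochondrial ribosomal protein genes, 65 lay lower in CCR6+ cells with a median difference of -0.23, and 49 were highest in CCR6- replicate 2. Of 80 cytosolic ribosomal protein genes, 53 lay lower with a median of -0.16, and 45 were highest in that library. In CCR6- replicate 4 the mitochondrial ribosomal proteins had a median deviation of 0.22, close to that of the OXPHOS genes at 0.24, whereas the cytosolic ones lay at -0.34.

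Promoter windows were read for shared motifs. Of the 86 genes, 73 matched a RefSeq promoter window of 300 bases, from 250 before to 50 after the start site on GRCm38.p6. The letters CGCATGCG, a core of the site of the respiratory factor NRF1, stood on either strand in 11 of the 73 windows (15.1%) and in 484 of 17491 windows of all protein-coding genes (2.77%). AAGATGGCG, a YY1 site, stood in 8 (11.0%, against 2.14% of all), TCAAGGTCA, a site of the estrogen-related receptors, in 2 (2.74%, against 0.377%), and CCGGAAGT, an ETS site of the GABP type, in 5 (6.85%, against 5.69%). The 17491 windows were not limited to genes that reached the filter. None of the 4 motifs contains another, and a match is a description of the sequence only. Shown are 4 stretches of 28 bases, 1 from each of 3 complexes and 1 from an assembly factor, with the NRF1 letters in capitals, read 5′ to 3′ on the strand of the gene. The stretch of Uqcrc1 lies after the start site in an annotated exon, and the other 3 lie before the start site outside annotated exons:
Uqcrc1, chr9:108936669-108936696, plus strand: ctccgctctgCGCATGCGcagcgcggct
Ndufa11, chr17:56717693-56717720, plus strand: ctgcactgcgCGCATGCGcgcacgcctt
Ndufaf4, chr4:24897961-24897988, plus strand: cagatgtctgCGCATGCGcctgtgcgga
Cox6a1, chr5:115349102-115349129, minus strand: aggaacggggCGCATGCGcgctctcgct
The 11 genes with the letters had a median difference of -0.27, 10 of them lower in CCR6+ cells, and the 62 without had -0.20, with 52 lower. Genes with the motif were highest in CCR6- replicate 2 in 5 of 11 cases, and those without in 44 of 62.

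Complex I, the NADH dehydrogenase, held genes without overlap among its core subunits, which form the electron path. Ndufv1, the subunit that binds NADH and flavin (chromosome 19, 4007384 to 4012806, mm10), had normalised counts of 3560, 2893 and 3451 in CCR6+ replicates 1 to 3 and 3592, 4711, 3767 and 4761 in CCR6- replicates 1 to 4. Its CCR6- replicates 2 and 4 were high, while CCR6- replicate 1 exceeded CCR6+ replicate 1 by little. The difference was -0.34 ± 0.19 (SE), with a limma adjusted p of 0.51. Ndufs1, the largest core subunit with iron-sulfur clusters (chromosome 1, 63143596 to 63176833), counted 4086, 3851 and 4021 against 4492, 4493, 4221 and 4255. Both groups were tight, and the difference of -0.13 ± 0.14 (SE) had an adjusted p of 0.65 in limma.

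All 7 core subunits measured lay lower in CCR6+ cells, from -0.13 to -0.44. In every core subunit CCR6- replicates 2 and 4 lay above the gene's mean. The accessory subunits, which surround the core and are needed for its assembly and stability, were more mixed, with 22 of 29 lower and differences from -0.46 to 0.79. The highest, Ndufb2, counted 186, 662 and 297 in CCR6+ replicates 1 to 3 against 179, 218, 243 and 142 in CCR6- replicates 1 to 4. Only CCR6+ replicates 2 and 3 stood above the CCR6- libraries, and without CCR6+ replicate 2 the difference went from 0.79 to 0.29. Ndufb4, a membrane-arm subunit, counted 16.3, 193 and 62.9 against 23.6, 45.6, 36.8 and 34.5, so that CCR6+ libraries held both its lowest and its highest values. Its difference of 0.77 became -0.082 without CCR6+ replicate 2. The 7 assembly factors, which build complex I and are not part of it, all lay lower, from -0.53 for Ndufaf6 to -0.065 for Ndufaf7. The one of highest level per length, Ndufaf1, counted 755, 503 and 678 in CCR6+ and 638, 814, 597 and 1168 in CCR6- libraries. Its groups overlapped, with CCR6- replicate 4 far above the rest and an adjusted p of 0.65 in limma.

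Complex II, succinate dehydrogenase, links the tricarboxylic acid (TCA) cycle to the respiratory chain and is the one complex with no mitochondrially encoded subunit. All 4 of its genes lay lower in CCR6+ cells, with overlap, and all 4 were lowest in CCR6+ replicate 2. In that library 39.5% of the 86 OXPHOS genes and 22.8% of all genes were lowest. Sdha, the flavoprotein, counted 14197, 11155 and 12775 in CCR6+ replicates 1 to 3 and 13701, 15086, 14506 and 17727 in CCR6- replicates 1 to 4. CCR6+ replicate 1 lay above CCR6- replicate 1, and the difference was -0.26 ± 0.17 (SE), adjusted p 0.55 in limma. Sdhb, the iron-sulfur subunit, counted 4638, 3815 and 5219.5 against 4399, 7044, 5044 and 7990. The 2 high values were CCR6- replicates 2 and 4, and the difference was -0.40 ± 0.27 (SE). The membrane anchors lay at 2522, 2500 and 2731 against 2633, 3560, 2659 and 3153 for Sdhc. Sdhd counted 5156, 4247 and 4616 against 5185, 7854, 5040 and 6984. In both, CCR6- replicates 2 and 4 stood high and CCR6- replicates 1 and 3 lay close to the CCR6+ libraries, with differences of -0.21 and -0.40. The median difference of complex II stayed negative without each library in turn, from -0.40 to -0.22, at -0.19 with the length trend removed, and at -0.18 without both libraries numbered 2.

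In complex III, which passes electrons from ubiquinol to cytochrome c, 6 of 8 genes lay lower in CCR6+ cells. Uqcrc1, core protein 1 and the gene of highest level per length in this complex at 7286 per kb (chromosome 9, 108936633 to 108949623), counted 11431, 8676 and 8189 in CCR6+ and 12038, 13542, 11603 and 25051 in CCR6- libraries. CCR6- replicate 4 was far above all others, and the other 3 CCR6- libraries lay just above CCR6+ replicate 1. The difference of -0.66 ± 0.32 (SE) had an adjusted p of 0.49 in limma. Its partner Uqcrc2 did not share the high value: it counted 5579, 3430 and 4653 in CCR6+ and 5235, 7327, 5184 and 4695 in CCR6- libraries, highest in CCR6- replicate 2. The Rieske iron-sulfur subunit Uqcrfs1 differed by -0.069 ± 0.20 (SE).

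In complex IV, cytochrome c oxidase, 10 of 14 genes lay lower in CCR6+ cells. Cox7c, a small membrane subunit (chromosome 13, 86044816 to 86046904), counted 124.6, 116.0 and 192.9 in CCR6+ and 243.1, 198.9, 193.1 and 283.6 in CCR6- libraries. CCR6+ replicates 1 and 2 were low, and CCR6+ replicate 3 lay just under CCR6- replicate 3, so the absence of overlap hangs on a gap smaller than 1 read. The difference was -0.68 ± 0.25 (SE), with p 0.034 unadjusted and 0.46 adjusted in limma. Cox4i1, the subunit of highest level per length here at 4762 per kb, counted 3357, 2943 and 3605 against 2814, 6017, 3252 and 3515. Only CCR6- replicate 2 stood out. The same library alone was high in Cox6b1, Cox7a2, Cox7b and Cox8a. Cox7a2l, a factor that joins complexes III and IV into supercomplexes, counted 940, 728 and 957 in CCR6+ and 956, 1632, 1157 and 1632 in CCR6- libraries. CCR6- replicates 2 and 4 were high and CCR6- replicate 1 lay level with CCR6+ replicate 3, with a difference of -0.59 ± 0.26 (SE) and an adjusted p of 0.48 in limma.

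Complex IV and its partners have isoforms confined to certain tissues, and CCR6+ replicate 2 stood out in most of them, as it did in Ndufb2 and Ndufb4. The common isoforms were by far the higher: per kb of exon, Cox4i1 averaged 4762 and Cox4i2 44.8, Cox6a1 2431 and Cox6a2 5.65, Cox6b1 1633 and Cox6b2 16.5, and Ndufa4 1600 and Ndufa4l2 27.7. Cox7a2 averaged 831 and Cox7a1 9.14, Cox7b 466 and Cox7b2 11.7, and Cox8a 1559, Cox8b 6.72 and Cox8c 23.4. Cox4i2, an isoform of lung and of low oxygen, had 7, 87 and 32 reads in CCR6+ replicates 1 to 3 and 3, 5, 2 and 3 in CCR6- replicates 1 to 4. Ndufa4l2, known from pericytes and hypoxia, had 10, 60 and 17 reads against 12, 9, 0 and 0. The muscle isoform gene Cox8b had 7 reads in CCR6+ replicate 2, 1 in CCR6+ replicate 3 and 0 in the other 5 libraries. Cox6a2, also of muscle, had 9 reads in CCR6+ replicate 2 and 0 to 3 elsewhere. The testis isoforms Cox8c and Cox7b2 had 22 and 16 reads in CCR6+ replicate 2, 21 and 7 in CCR6+ replicate 3, and at most 2 elsewhere. CCR6+ replicate 2 thus held the highest level of every gene named in this paragraph as tissue-restricted except Cox7a1. Of all 14582 genes tested, 43.6% were also highest in that library. It was the shallowest library, and each read there counted as 2.27 normalised units, against 0.677 to 1.02 elsewhere. Cox6b2 had 12 reads there, against 13 in CCR6+ replicate 1 and 18 in CCR6- replicate 2, so it was highest there only after normalisation.

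**Figure D5:**
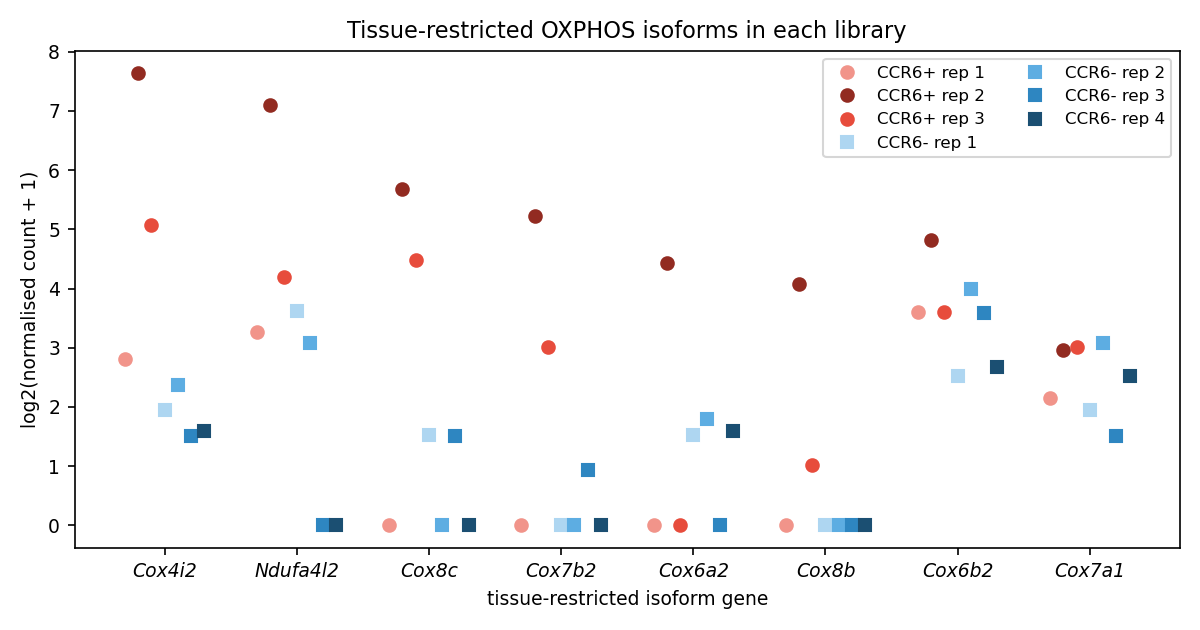
Points show log2(normalised count + 1) of 8 tissue-restricted isoform genes in each library, circles for CCR6+ and squares for CCR6-. CCR6+ replicate 2, the darkest circle, is highest in 7 of the 8 genes, against 43.6% of all genes tested. Cox7a1 is low in all libraries.

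The sum of 10 heart muscle markers was 2436 in CCR6+ replicate 2 and 194 to 493 elsewhere, and that of 7 skeletal muscle and brown fat markers was 853 against 34.0 to 230. The sum of fibroblast, pericyte and smooth muscle markers is given above for the same library. Of those 14 markers, 3, 0 and 0 were at 0 in CCR6+ replicates 1 to 3 and 2, 1, 0 and 4 in CCR6- replicates 1 to 4, the pericyte marker Rgs5 among them in CCR6+ replicate 1 and CCR6- replicates 1 and 4. The part of such cells, and of the reads in receptor genes, in the isoform counts was not tested. At the edge of the filter, Ndufa4l2 passed with 3 libraries at 10 or more, while Cox4i2 and Cox8c failed with 2. Ndufa4l2 had to be high in CCR6+ libraries to pass, so its difference of 3.18 is a description.

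Complex V, the ATP synthase, lay lower in CCR6+ cells for 15 of 17 genes. Those 15 include Atp5sl, at -0.19, which is not itself part of the ATP synthase. Its catalytic F1 head, 5 genes, lay lower throughout, and all 5 were highest in CCR6- replicate 2 and lowest in CCR6+ replicate 2. Of the 86 OXPHOS genes, 67.4% were highest in CCR6- replicate 2 and 39.5% lowest in CCR6+ replicate 2. Over all genes these shares were 11.6% and 22.8%. Atp5a1, the alpha subunit, counted 27004, 20029 and 21618 in CCR6+ and 30231, 31701, 28609 and 27498 in CCR6- libraries. The CCR6- libraries lay close to each other and above all CCR6+ libraries, the nearest being CCR6+ replicate 1. The difference was -0.38 ± 0.17 (SE), with an adjusted p of 0.48 in limma. Atp5b, the beta subunit, had the highest level per length of all 86 genes at 20532 per kb. It counted 39580, 31475 and 36151 in CCR6+ and 44121, 50180, 41518 and 32354 in CCR6- libraries, so that CCR6- replicate 4 fell among the CCR6+ values. The difference was -0.22 ± 0.21 (SE), adjusted p 0.63 in limma.

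The c ring of the ATP synthase is encoded by 3 genes with the same mature protein, and Atp5g3 held nearly all reads counted to them. Atp5g3 averaged 5293 per kb, Atp5g2 13.1 and Atp5g1 8.05. The level of Atp5g1 is uncertain because of a near-identical copy, and its 4912 exon bases, against 724 of Atp5g3, lower its value per kb. Atp5g3 counted 3579, 3082 and 3885 in CCR6+ and 3362, 5954, 4087 and 2876 in CCR6- libraries, highest in CCR6- replicate 2. Atp5g2 counted 20.6, 38.7 and 32.5 against 12.3, 21.5, 20.2 and 8.12. It was the gene higher in CCR6+ cells at an unadjusted p under 0.05, with a difference of 0.98 ± 0.40 (SE), p 0.048 and a limma adjusted p of 0.47. Its groups overlapped, since CCR6+ replicate 1 lay below CCR6- replicate 2, and its highest value was that of CCR6+ replicate 2. Atp5g1 counted 11.2, 81.9 and 66.0 against 28.4, 21.5, 36.8 and 31.1, with both extremes among CCR6+ libraries.

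Levels of small OXPHOS genes can depend on how reads of near-identical copies were counted, which the sources used here do not give. Of the 86 genes, 56 had no other annotated gene with a stretch of at least 150 bases at 95% identity or more, and 28 had 1 to 4 such genes. Their median levels were 1070 and 526 per kb. Atp5l, the g subunit of ATP synthase, matched 9 other genes, 8 of them pseudogenes, and lay at only 17.8 per kb. Ndufaf7 matched 8, with 0 pseudogenes, and Cox7c, Cox4i1 and Uqcrc2 matched 1 each, also with 0 pseudogenes. The search took both strands and masked no repeats, so a match need not be a copy of the gene. Values of the 30 genes with a match are uncertain in level, Cox7c, Ndufb4, Atp5g1, Cox4i1, Cox7a2l, Cox7b and Uqcrc2 among them.

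The wider OXPHOS pathway was described from lists of genes outside the symbol rule, and no gene on them passed the adjusted threshold or an unadjusted p under 0.05 in limma. Cyc1 and Cycs, cytochrome c1 and cytochrome c, both lay lower in CCR6+ cells, at -0.38 and -0.39. Of 22 complex IV assembly genes tested, 16 lay lower with a median of -0.11. Cox11, a copper chaperone of complex IV, counted 212, 164 and 213 in CCR6+ and 242, 230, 235 and 303 in CCR6- libraries, with no overlap and a difference of -0.36 ± 0.19 (SE). The assembly genes of complex III lay lower in 5 of 6 cases, those of complex II in 3 of 4, the other complex I factors in 4 of 7, and the complex V assembly, inhibitor and accessory genes in 4 of 6. Enzymes of the TCA cycle, which feeds NADH and succinate to the chain, lay lower in 12 of 14 cases with a median of -0.14. Of 10 import, porin and carrier genes, 9 lay lower with a median of -0.17.

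Of 14 regulators of mitochondrial transcription and biogenesis, 11 lay lower in CCR6+ cells with a median of -0.20. Ppargc1a, the coactivator PGC-1 alpha, went the other way. It counted 14.6, 496 and 100 in CCR6+ and 10.4, 5.80, 38.6 and 0 in CCR6- libraries. It was highest in CCR6+ replicate 2, the library with the highest muscle and stromal marker sums, and CCR6+ replicate 1 lay within the CCR6- range, and the difference of 3.63 ± 1.59 (SE) had an adjusted p of 0.48 in limma. Polg, the mitochondrial DNA polymerase, counted 4624, 4274 and 4985 against 6675, 4736, 5819 and 6211, with overlap only at CCR6- replicate 2. That library, the highest in most OXPHOS genes, was thus the lowest CCR6- library for Polg.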

How the data were processed

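RNA-seq of 7 libraries was used, 3 CCR6+ and 4 CCR6-, made per the labels' protocols with SMART-Seq v4 and KAPA Hyper Prep kits, which are not described there as marking strand. Each deposited value is a signal, in which the authors divided a gene's count by a factor of its library. Values are whole multiples of a step for 100% of values (within 0.001 reads), from which reads were recovered. The submitters' processing notes list STAR 2.5.1b, HTSeq 0.6.1p1, DESeq2 1.6.3 and mm10, with no role or order. Annotation, filters and strand use were not given in the sources used here.

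The members and lists were chosen with earlier results of these data known. Genes at 10 or more in at least 3 libraries were tested with limma 3.58.1 (R 4.3.3) on log2(value + 1), two-sided, without covariates, with Benjamini-Hochberg adjustment at 0.05. This scale understates changes of low genes. Alternatives were other pseudocounts, filters and scalings, limma-trend, arrayWeights, a replicate block, tests of the recovered reads with DESeq2 1.42.0 and edgeR 4.0.16 (which called 2 of all genes), and each library left out. Named were up to 8 members per direction of smallest p, with groups not overlapping and a mean of at least 50, any past the threshold, the Sdh genes, isoform sets, genes at the filter's edge, the gene of highest level per length in each complex, and up to 2 per pathway list. A few genes that the rule takes are not reported here. Ndufb2, Ndufb4, Uqcrc2 and Uqcrfs1 were chosen after their values were seen. Positions and exon lengths are from GENCODE mouse release 21. Copies were sought with blastn 2.17.0+. The scripts were tested on simulated counts.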

Additional observations from a re-analysis of the deposited data

Results flagged for a closer look

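In 5 of 34 sets of 4 CCR6- values examined, 1 library lay far from the other 3, by Dixon's test at its 95% critical value. Chance alone gives this for about 5% of such sets, and the genes are not independent. Uqcrc1 stood at 25051 normalised counts in CCR6- replicate 4, against 11603 to 13542 in the other 3 CCR6- libraries. The remaining 4 are complex IV subunits, all with CCR6- replicate 2 as the far library. Cox6b1 stood there at 1901 (others 716 to 907), Cox7a2 at 1011 (386 to 485), Cox7b at 849 (337 to 383) and Cox8a at 1624 (582 to 648).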

How the results depend on the processing

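The median difference of the OXPHOS genes was negative under every alternative except arrayWeights. It ranged from -0.33 to -0.063 over the libraries left out in turn. The counts with negative differences then ranged from 51 to 79. No gene of the 86 passed adjustment under any alternative but arrayWeights, whose weights, from 0.208 to 24.2 (CCR6+ replicate 3), were estimated without convergence. There the medians were 0.098 for all 86, 0.105 for complex I, -0.093 for complex II and 0.27 for complex III, and 30 differences were negative. Past adjustment stood 1 higher (Atp5g2, 1.16%, against 10% of all genes) and 2 lower (Uqcrc1 and Atp5a1, 2.33%, against 7.05%). The genes called there numbered 2486 in all (DESeq2 called 679). At an unadjusted p under 0.05 stood 7 higher (8.14%, against 25.4% of all genes) and 6 lower (6.98%, against 15.2%).

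At an unadjusted p under 0.05, 0 genes were higher without a filter, with a mean of at least 100, with equal totals, TMM, quantile normalization, limma-trend, edgeR and DESeq2. Under these settings 4.66% (quantile normalization) to 16.5% (DESeq2) of all genes were higher. The number lower was 2 with a mean of at least 100 (2.6%, against 3.83% of all genes), limma-trend (2.33%, against 3.48%) and edgeR (2.33%, against 5.05%). It was 4 with quantile normalization (4.65%, against 5.69%), 5 with DESeq2 (5.81%, against 5%), and 0 without both libraries numbered 2 (against 2.43%). Over the libraries left out the number ran from 0 to 5 higher and 0 to 1 lower. Of all genes, 4.57% to 21.8% were then higher and 1.39% to 2.32% lower. The 5 higher came without CCR6+ replicate 1 (5.81%, against 21.8%). Groups without overlap numbered 2 lower with equal totals (2.33%, against 3.94% of all genes) and 10 with TMM (11.6%, against 6.98%), and ran from 6 to 16 lower and 0 to 5 higher over the libraries left out. Fewer libraries raise this share for all genes. The 12 lower without CCR6+ replicate 3 were 14.0%, against 8.39% of all genes, and the 16 without CCR6- replicate 1 were 18.6%, against 7.37%. The 5 higher without CCR6+ replicate 1 were 5.81%, against 27.2%, and the 4 without CCR6- replicate 2 were 4.65%, against 11.2%.

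The settings chosen after the data were seen gave 1 gene higher without overlap with the length trend removed (1.16%, against 9.41% of all genes), and 10 higher (11.6%, against 15.0%) and 47 negative differences without both libraries numbered 2, where the median was -0.016. Quantile normalization gave -0.65 for complex I assembly factors and turned Ndufs1 to 0.000102. Scalings moved the median of all genes from 0.097 to 0.0085 with TMM, 0.18 with equal totals and -0.082 with quantile normalization. The median of OXPHOS minus that of all genes was -0.31 as reported, -0.31 with TMM, -0.31 with equal totals, -0.36 with quantile normalization, -0.20 with the length trend removed and -0.19 among genes with a mean of at least 100. The cause of these changes was not tested.

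With the replicate number as a block in limma, 0 genes were lower at an unadjusted p under 0.05 (against 0.953% of all genes). There 1 was higher (1.16%, against 5.52%), and the median was -0.17. CCR6- replicate 4 shares its number with no CCR6+ library, so the block fit takes no group difference from it. The median was therefore the same as without that library. The labels do not say whether the numbers pair libraries. Deviations from the group mean correlated at -0.13, -0.11 and 0.34 between libraries with the same number. Between libraries with different numbers they correlated at -0.76 to 0.69. Each group mean is taken over only 3 or 4 libraries, which ties their deviations together, so these values cannot settle pairing.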
